A study of Mus musculus with 4 samples.

Results

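The genes of antigen presentation by major histocompatibility complex (MHC) class II were examined in mouse bone marrow progenitors labelled Hif1a-intact or Hif1a-null. They are the 10 rows of the deposited table whose mapped symbol is H2-Aa, H2-Ab1, H2-Eb1, Cd74, H2-DMa, H2-DMb1, H2-DMb2, H2-Oa, H2-Ob or Ciita, out of 28987 genes. All 10 had at least 1 TPM in at least 2 libraries and were tested. TPM is a relative transcript abundance, corrected for transcript length and scaled to a fixed total, so levels of different genes can be set side by side.

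RNA came from bone marrow cells of C57BL/6 mice that carry c-Kit (CD117), the receptor used to enrich haematopoietic stem and progenitor cells on magnetic beads. All 4 libraries came from MllPTD/WT mice, which have a partial tandem duplication in 1 Mll (Kmt2a) allele, with Runx1 Flox/Flox and Mx1-Cre, a recombinase driven by an interferon-inducible promoter. All 4 are labelled Runx1null. The 2 Hif1a-intact libraries carry no further floxed gene. The 2 Hif1a-null libraries also carry Hif-1alpha Flox/Flox and are labelled Hif1anull. The product of Hif1a is the part of the factor HIF-1 that oxygen keeps low, and the comparison asks what differs with its loss. The labels do not give age, sex, any agent used to induce Cre, or whether each library is a mouse of its own. The p-values therefore rest on the spread among these 4 samples alone, and that spread may be technical.

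Class II molecules are pairs of an alpha and a beta chain that carry peptides from endosomes to the cell surface, where CD4 T cells read them. The chains assemble on the invariant chain Cd74, whose groove-filling remnant is removed by H2-DM, an exchange factor that H2-DO restrains. The coactivator Ciita binds no DNA itself and acts through factors assembled on the X and Y boxes shared by class II promoters. B cells, dendritic cells and macrophages express the pathway strongly, and it has also been described in mouse stem and progenitor cells.

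The promoters of the class II genes are shown because the shared X and Y boxes are the sequence that ties these genes to one coactivator. RefSeq (GRCm38.p6) windows of 300 bases, 250 before to 50 after each start, matched 7 of the 10 genes in 8 windows. Starts are RefSeq's and can differ from the gene models below. No window is given here for H2-Ab1, Cd74 or Ciita. Capitals mark the letters GNAAC, a core of the X box, and ATTGG, the CCAAT-type Y box.
H2-Aa (chr17:34287857-34287914, minus strand): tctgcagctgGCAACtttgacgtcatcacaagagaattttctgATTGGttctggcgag
H2-Eb1 (chr17:34305766-34305822, plus strand): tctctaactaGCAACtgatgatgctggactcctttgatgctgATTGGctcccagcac
H2-DMb1 (chr17:34153087-34153144, plus strand): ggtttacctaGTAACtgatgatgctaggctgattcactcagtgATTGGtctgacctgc
H2-DMb2 (chr17:34145116-34145173, plus strand): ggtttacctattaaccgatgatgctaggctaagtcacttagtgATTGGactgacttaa
H2-Oa (chr17:34092293-34092350, plus strand): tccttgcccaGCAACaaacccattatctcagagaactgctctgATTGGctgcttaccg
H2-Ob (chr17:34238808-34238862, plus strand): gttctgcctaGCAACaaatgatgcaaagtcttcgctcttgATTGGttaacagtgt

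GNAAC followed by ATTGG on the same strand after a gap of 15 to 40 letters was found in 5 of the 8 windows, always on the gene's own strand, with gaps of 25 to 28 letters. Of all 32851 RefSeq windows of the same length, 2.07% held such a pair on the gene's own strand and 4.23% on either strand. GNAAC alone was found on either strand in 84.8% of all windows and ATTGG alone in 37.4%. The letters and the gap were chosen after the class II promoters had been seen, and a match is a description, not a site. The stretch of H2-DMb2, the near copy of H2-DMb1, holds ATTGG without the paired GNAAC, and neither H2-DMa window held the pair.

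The selected cells had the RNA of progenitors together with that of maturing myeloid cells. Kit read 128 and 126 TPM with Hif1a intact and 121 and 102 TPM in the Hif1a-null pair, and Cd34 244 and 251 against 179 and 206 TPM. Both were lower without overlap and did not pass (limma, adjusted p = 0.517 and 0.231). Of the 6 stem and progenitor markers, 3 were higher and 3 lower without overlap, against 22.7% and 32.3% of all genes tested. The neutrophil marker S100a8 read 9656 and 4627 against 11933 and 11027 TPM (limma, adjusted p = 0.330). Of 6 neutrophil markers tested, 4 rose and 0 fell, against 5.25% and 2.02% of all genes tested. S100a8 did not pass. Camp did not either, at 8917 and 11693 against 8951 and 9296 TPM with overlapping groups (limma, adjusted p = 0.662). Ly6g, a surface protein of neutrophils, rose from 26.1 and 24.9 to 129 and 162 TPM, and the granule protease gene Mmp9 from 60.2 and 52.9 to 195 and 216 TPM. Retnlg rose from 48.9 and 29.7 to 269 and 252 TPM, and the granule protein gene Ngp from 2167 and 2149 to 3644 and 3587 TPM. Limma adjusted p was 0.00803, 0.00996, 0.0153 and 0.0449, and Ngp lost its call under 5 of 11 alternatives with all libraries and whenever 1 library was left out. Of 6 stem and progenitor markers, all tested, the transcription factor gene Hlf rose (4.27 and 2.80 against 15.1 and 13.8 TPM, limma adjusted p = 0.0218) and Gata2 fell (14.6 and 13.6 against 6.68 and 6.21 TPM, limma adjusted p = 0.0267). Without filtering, Retnlg and Hlf lost their calls (limma, adjusted p = 0.0534 and 0.0604), and without either Hif1a-null library all 6 of these genes did. The part of these cells in the class II levels was not tested. Hif1a read 100 and 75.2 TPM with Hif1a intact and 98.8 and 113 TPM in the null pair (limma, adjusted p = 0.479). A gene-level value includes exons outside the floxed part and does not check the deletion. Runx1, floxed and labelled null in both groups, read 73.6 and 76.6 against 48.4 and 46.7 TPM (limma, adjusted p = 0.0636). An effect of that difference cannot be told apart from one of Hif1a.

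Cd74 was the only one of the 10 class II genes to pass the test, and it was higher in the Hif1a-null libraries. Of the 10 genes 1 rose and 0 fell at a limma adjusted p under 0.05, and at an unadjusted p under 0.05 the limma counts were 2 higher and 2 lower. Over all 11909 genes tested 5.25% rose and 2.02% fell, 7.27% in all, and at the unadjusted p 11.4% were higher and 11.9% lower. A single gene among 10 is therefore no result about the set. The remaining 9 did not pass, which does not show that they were alike in the groups. The fold changes lay on both sides of 0, with 7 of the 10 above it, a median of 0.18 on the log2(TPM + 1) scale and a range from -0.90 to 1.11. The median over all genes tested was -0.06. In bulk RNA, more cells that carry a transcript and more transcript per cell cannot be told apart.

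**Figure D1:**
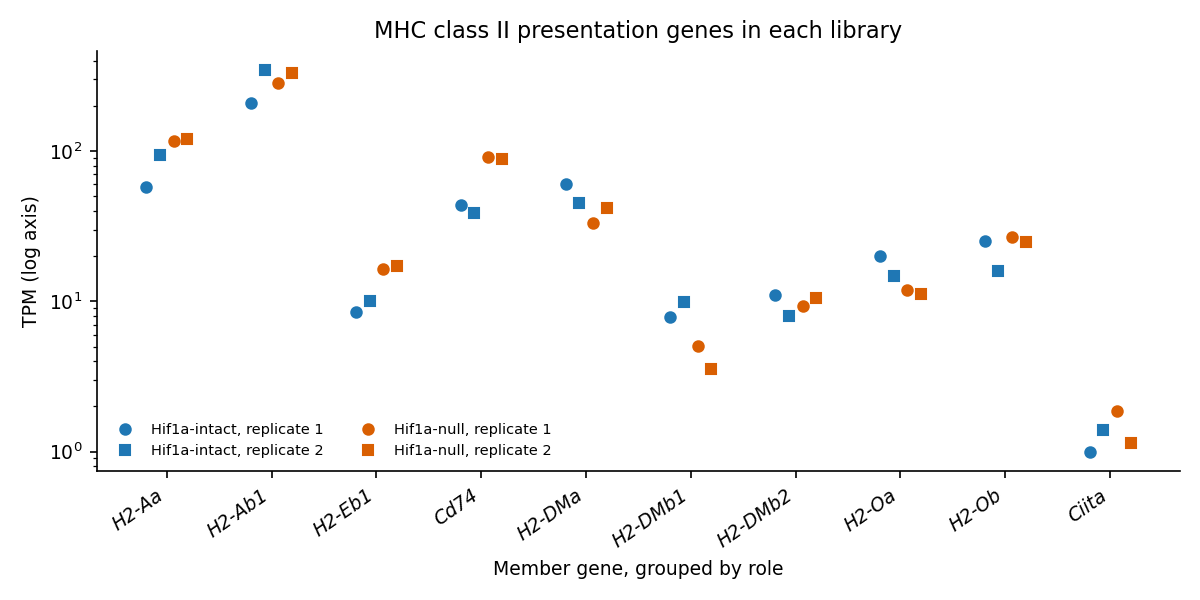
TPM (log axis) of the 10 class II genes in each library, Hif1a-intact in blue and Hif1a-null in orange, circles for replicate 1 and squares for replicate 2. H2-Ab1 was the most abundant in every library and Ciita the least, and the groups are clearly apart for Cd74, at 38.8 to 43.7 against 87.8 to 91.9 TPM.

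The levels followed a similar, though not the same, order in all libraries. H2-Ab1 averaged 292 TPM over the 4 libraries and made up 47.2% to 59.3% of the summed class II TPM. H2-Aa averaged 97.0 TPM, Cd74 65.6 TPM and H2-DMa 45.1 TPM. H2-Ab1 exceeded H2-Aa without overlap of their ranges, as did H2-DMa over H2-Ob and H2-DMb1 over Ciita. Every other pair of neighbours in the order overlapped. Cd74 exceeded H2-DMa in 2 of 4 libraries, both Hif1a-null, and H2-Oa exceeded H2-Eb1 in 2 of 4, both Hif1a-intact.

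Among the classical chains, H2-Aa and H2-Ab1 encode the alpha and beta chains of I-A, and H2-Eb1 the beta chain of I-E. H2-Aa (ENSMUSG00000036594, GRCm38 chromosome 17, 34282744 to 34287823, minus strand) read 57.3 and 94.2 TPM with Hif1a intact and 117 and 119 TPM in the Hif1a-null pair. The groups did not overlap, but the Hif1a-intact pair lay far apart. The means were 75.8 ± 26.1 and 118 ± 1.64 TPM (SD, n = 2 each), a log2 fold change of 0.68 (SE 0.27, limma, adjusted p = 0.244). Without Hif1a-intact replicate 1 the log2 fold change was 0.32 (limma, adjusted p = 0.150), and without replicate 2 it was 1.03 and passed (limma, adjusted p = 0.0466).

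H2-Ab1 (ENSMUSG00000073421, chromosome 17, 34257689 to 34269419, plus strand) read 210 and 347 TPM against 282 and 330 TPM. Both Hif1a-null values lay between the Hif1a-intact values, so the groups overlapped. The difference was 0.18 on the log2 scale, standard error 0.29 (limma, adjusted p = 0.773), and it turned to -0.18 without Hif1a-intact replicate 1. H2-Aa and H2-Ab1 shared the spread inside the Hif1a-intact group: replicate 2 was 1.64 and 1.65 times replicate 1. H2-Eb1 and Cd74 did not follow it to that extent, at 1.18 and 0.889 times.

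H2-Eb1 (ENSMUSG00000060586, chromosome 17, 34305867 to 34316674, plus strand) read 8.44 and 9.99 TPM with Hif1a intact and 16.4 and 17.2 TPM in the Hif1a-null pair. The groups did not overlap and the pairs were tight. The difference of 0.81 on the log2 scale, standard error 0.15, fell just short of the threshold (limma, adjusted p = 0.0562; 0.0391 among protein-coding genes only). H2-Ea-ps, the alpha chain partner that is a pseudogene in C57BL/6 mice, was listed at 0 in all 4 libraries. H2-Eb2, a further beta chain gene, read 0.0278 to 0.410 TPM and was not tested.

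Cd74 (ENSMUSG00000024610, chromosome 18, 60803848 to 60812652, plus strand) encodes the invariant chain, which blocks the groove of new class II pairs and steers them to endosomes. It read 43.7 and 38.8 TPM with Hif1a intact and 91.9 and 87.8 TPM in the Hif1a-null pair. Both Hif1a-null values lay above both Hif1a-intact values, and the replicates of each group were close. The means were 41.2 ± 3.44 and 89.9 ± 2.89 TPM (SD, n = 2 each), a ratio of 2.18. The rise was 1.11 on the log2 scale, standard error 0.14 (limma, adjusted p = 0.0249). Without Hif1a-null replicate 1 or 2 the log2 fold change was 1.07 or 1.14, but the call was lost (limma, adjusted p = 0.335 and 0.342). Over all genes, 11 were then called higher and 8 lower without replicate 1, and 0 either way without replicate 2.

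**Figure D2:**
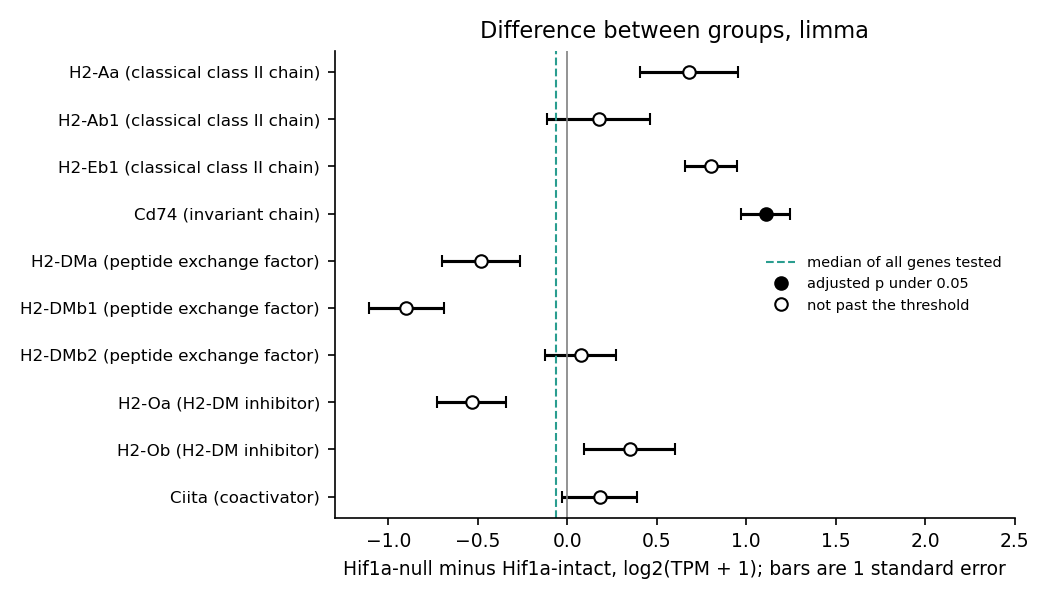
Difference of the group means on the log2(TPM + 1) scale for each class II gene, Hif1a-null minus Hif1a-intact, with bars of 1 standard error from limma and the median of all genes tested as a dashed line at -0.06. Cd74 is the only filled point, at 1.11, and H2-DMb1 lies lowest, at -0.90.

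The exchange factor H2-DM pairs the H2-DMa chain with a product of H2-DMb1 or H2-DMb2. H2-DMa (ENSMUSG00000037649, chromosome 17, 34119541 to 34139101, plus strand) read 60.6 and 45.0 TPM against 33.1 and 41.6 TPM. The groups did not overlap, with a gap between them smaller than the distance inside either pair. The difference was -0.48 on the log2 scale, standard error 0.22 (limma, adjusted p = 0.292), and ran from -0.27 to -0.69 without Hif1a-intact replicate 1 or 2. Its exons share 360 bases with Brd2 on the opposite strand, which read 66.7 and 105 against 52.3 and 47.8 TPM. With no strand setting given, reads from those bases cannot be told apart.

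H2-DMb1 (ENSMUSG00000079547, chromosome 17, 34153072 to 34160230, plus strand) read 7.86 and 9.82 TPM against 5.04 and 3.56 TPM. The Hif1a-null values were the lower ones, with no overlap. The difference was -0.90 on the log2 scale, standard error 0.21 (limma, adjusted p = 0.0985). H2-DMb2 (ENSMUSG00000037548, chromosome 17, 34143307 to 34151555, plus strand) read 11.0 and 7.94 TPM against 9.26 and 10.5 TPM, with overlapping groups and a log2 fold change of 0.07 (limma, adjusted p = 0.869). These neighbouring genes are 95.7% identical over 1081 aligned bases of transcript, so how their reads were split between them is uncertain. Summed, they read 18.8 and 17.8 TPM against 14.3 and 14.1 TPM. The sum was lower in both Hif1a-null libraries, and its log2 fold change of -0.34 (SE 0.12) did not pass (limma, adjusted p = 0.211).

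H2-DO, made of the H2-Oa and H2-Ob chains, binds H2-DM and holds back peptide exchange. H2-Oa (ENSMUSG00000024334, chromosome 17, 34092340 to 34095234, plus strand) read 20.0 and 14.7 TPM against 11.9 and 11.1 TPM, a log2 fold change of -0.54 (SE 0.19, limma, adjusted p = 0.208). H2-Ob (ENSMUSG00000041538, chromosome 17, 34238903 to 34254414, plus strand) read 25.3 and 15.8 TPM against 26.9 and 24.7 TPM, a log2 fold change of 0.35 (SE 0.26, limma, adjusted p = 0.496). The groups overlapped for H2-Ob and not for H2-Oa. Both depended on the Hif1a-intact libraries: without replicate 1 the differences were -0.32 for H2-Oa and 0.67 for H2-Ob, and without replicate 2 they were -0.75 and 0.028. The exons of H2-Oa share 321 bases with the antisense gene BC051537, which was not analysed here.

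Ciita (ENSMUSG00000022504, chromosome 16, 10480059 to 10528418), the coactivator that class II promoters depend on, was the least abundant of the 10. Its exons share 329 bases, 3.45% of their length, with Dexi on the opposite strand, which read 5.09 and 4.63 against 5.39 and 5.24 TPM. With no strand setting given, reads from those bases cannot be told apart. Ciita read 0.990 and 1.40 TPM against 1.86 and 1.14 TPM. The groups overlapped, and the log2 fold change of 0.18 (SE 0.21) did not pass (limma, adjusted p = 0.672); under quantile normalization it was -0.14.

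The proportions among the class II transcripts were set out per library, as descriptions with no test. Cd74 amounted to 15.8% and 8.60% of the summed classical chains with Hif1a intact and 22.1% and 18.8% in the Hif1a-null pair. The ratio of H2-Ab1 to H2-Aa was 3.66 and 3.68 against 2.40 and 2.77. The Hif1a-intact libraries were close in that ratio, although each gene's level differed between them.

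The ratio of classical chains to summed H2-DM was 3.47 and 7.19 against 8.76 and 8.38, so the Hif1a-intact replicates lay further apart than replicate 2 did from the Hif1a-null libraries. Summed H2-DM over summed H2-DO was 1.76 and 2.06 against 1.22 and 1.56. H2-Oa over H2-Ob was 0.791 and 0.926 against 0.443 and 0.450. The groups did not overlap in any of these 5 ratios. They did overlap in the share of H2-Ab1 in the summed class II TPM. They also overlapped in H2-DM plus H2-DO relative to the summed classical chains (45.2% and 20.7% against 20.8% and 19.6%). The summed levels of H2-DO and of the classical chains overlapped too. For the levels of single class II genes, the groups did not overlap in 6 of 10, 3 higher and 3 lower, against 55.0% of all genes tested, 22.7% higher and 32.3% lower.

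**Figure D3:**
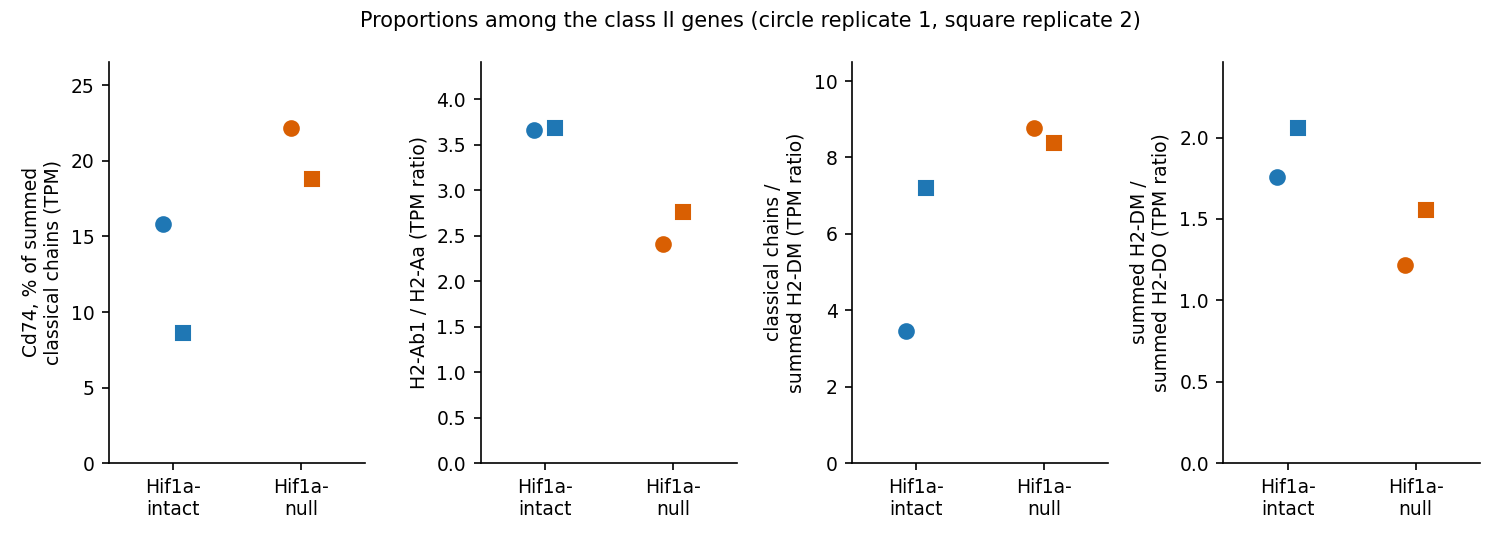
TPM ratios among the class II genes in each library, blue for Hif1a-intact and orange for Hif1a-null, each axis starting at 0. Cd74 relative to the chains was 8.60% to 15.8% against 18.8% to 22.1%, and H2-Ab1 relative to H2-Aa 3.66 to 3.68 against 2.40 to 2.77.

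The summed TPM of the 10 genes was 445 and 585 with Hif1a intact and 595 and 647 in the Hif1a-null pair. The gap between the groups was small beside the distance inside the Hif1a-intact pair. The exact two-sided permutation test gave p = 0.333, the smallest it can give for 2 against 2. With median-ratio scaling the groups overlapped (p = 0.667 by the same exact test). The log2 difference of the group means was 0.28, and 0.087 without Hif1a-intact replicate 1. H2-Ab1 was the largest term of this sum in every library.

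Along chromosome 17 the class II genes other than Cd74 and Ciita lie within one stretch together with genes of other functions. H2-Oa, H2-DMa and H2-DMb1, at one end, had log2 fold changes of -0.54, -0.48 and -0.90, with H2-DMb2 among them at 0.07. H2-Ob, H2-Ab1, H2-Aa and H2-Eb1, at the other end, had 0.35, 0.18, 0.68 and 0.81. Between them lie Tap1 and Tap2, the peptide transporter of class I presentation, and the immunoproteasome subunit Psmb8, at -0.43, -0.38 and -0.65, and near H2-DMa the chromatin reader Brd2, at -0.73. None of these 4 neighbours passed (limma, adjusted p from 0.175 to 0.270), and the unadjusted limma p was under 0.05 for 2 of them, both lower, against 11.9% of all genes tested. All 4 were lower without overlap, as were 32.3% of all genes tested. Btnl2, a butyrophilin-like gene, read at most 0.0445 TPM and was not tested, and Psmb9 was not analysed here.

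**Figure D4:**
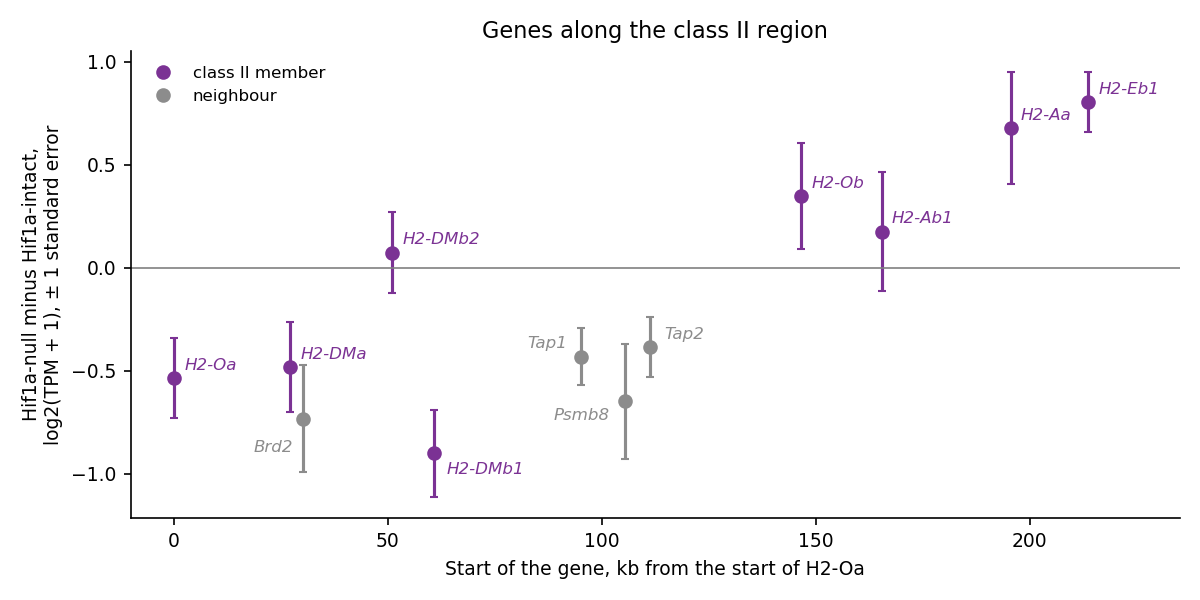
Log2 fold change (Hif1a-null minus Hif1a-intact, with 1 standard error) of tested class II genes and neighbours on chromosome 17. The horizontal axis is the distance of their start from that of H2-Oa in kilobases. Values run from -0.90 for H2-DMb1 to 0.81 for H2-Eb1 and no gene shown here passed the threshold.

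In the wider pathway, 20 genes were listed, of which 16 could be tested, 1 rose and 1 fell. Over all genes tested 5.25% rose and 2.02% fell, the shares to set beside this and later list counts. Ifi30, the endosomal reductase that opens disulphide bonds of antigens, fell from 23.3 and 22.8 TPM to 6.43 and 6.94 TPM. The change was -1.65 on the log2 scale, standard error 0.13 (limma, adjusted p = 0.00936). GENCODE vM21 does not class it as protein-coding, so the test among protein-coding genes leaves it out. The exons of Ifi30 share 85 bases, 8.7% of their length, with 6330537M06Rik on the opposite strand, which was not analysed here. The groups were far apart and each pair close, in the direction opposite to Cd74. Without either Hif1a-null library the limma adjusted p was 0.158 and 0.174. Cd83, a surface protein that stabilises class II on the membrane, rose from 0.430 and 0.604 TPM to 2.16 and 2.09 TPM (log2 fold change 1.05, limma, adjusted p = 0.0270). It reached 1 TPM in the Hif1a-null libraries alone, so the filter fixed its direction, and under quantile normalization it did not pass (limma, adjusted p = 0.0754). When either Hif1a-null library was left out, Cd83 fell below the filter, so its call could not be checked that way.

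The 5 endosomal proteases had fold changes above 0 and none passed. Legumain (Lgmn) read 4.40 and 5.70 against 10.4 and 8.81 TPM (limma, adjusted p = 0.0871) and cathepsin L (Ctsl) 4.24 and 5.25 against 8.62 and 7.38 TPM (limma, adjusted p = 0.116). Cathepsin S (Ctss), which trims the invariant chain in B cells and dendritic cells, read 42.8 and 47.4 against 54.6 and 52.3 TPM (limma, adjusted p = 0.376). Cathepsin D (Ctsd) read 178 and 186 against 226 and 224 TPM (limma, adjusted p = 0.245). Cathepsin B (Ctsb) read 58.8 and 60.3 against 64.0 and 63.0 TPM (limma, adjusted p = 0.722). The groups did not overlap for any of the 5 proteases, all higher, against 22.7% of all genes tested. The 7 X and Y box factors, Rfx5, Rfxap, Rfxank, Nfya, Nfyb, Nfyc and Creb1, had log2 fold changes from -0.57 to 0.07 and none passed (limma, adjusted p from 0.290 to 0.940). The costimulator Cd86 read 1.37 and 0.0955 against 3.16 and 5.95 TPM (limma, adjusted p = 0.133), and Cd80 and Cd40 were too low to be tested.

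Of 11 regulators of Ciita or of class II induction, 9 were tested, 1 rose and 0 fell, with 1 of the others at an unadjusted limma p under 0.05. Irf4, a factor of B cell and dendritic cell development, read 0.297 and 0.440 against 2.77 and 2.85 TPM (log2 fold change 1.48, limma, adjusted p = 0.0127). It too passed the filter through the Hif1a-null libraries alone. When either of them was left out, Irf4 fell below the filter, so its call could not be checked that way. Irf8 (48.0 and 63.5 against 57.0 and 50.4 TPM) and Spi1 (137 and 156 against 130 and 147 TPM) had overlapping groups. The interferon gamma receptor gene Ifngr1 read 639 and 560 against 527 and 460 TPM (limma, adjusted p = 0.371).

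Some markers of cells known for high class II expression moved with the groups, in different directions, and others did not. The 9 B cell markers summed to 7.22 to 12.0 TPM in the Hif1a-intact and 15.4 to 18.2 TPM in the Hif1a-null libraries. Of the 3 tested, 2 rose, against 5.25% of all genes tested. They were the receptor subunit Cd79a (0.356 and 0.111 against 4.18 and 3.26 TPM) and the factor Ebf1 (0.185 and 0.0573 against 1.44 and 1.29 TPM). Limma adjusted p was 0.0147 and 0.0267. Neither reached 1 TPM with Hif1a intact, so the filter fixed their direction. Ebf1 lost its call under quantile normalization (log2 fold change 0.62, limma adjusted p = 0.0733) and without Hif1a-intact replicate 2 (0.0515). The other tested marker, Cd79b, the largest term of each sum, read 9.97 and 6.12 against 9.44 and 7.91 TPM. Its groups overlapped (limma, adjusted p = 0.823). Of those too low to be tested, Fcer2a was lower (0.837 and 0.594 against 0.425 and 0.227 TPM). Ms4a1, Pax5, Cd22, Cr2 and Blk were higher, all without overlap. Blk was at 0 in both Hif1a-intact libraries, and Pax5 in replicate 1 of that group. Ms4a1, a marker of later B cells, read at most 1.19 TPM.

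The 6 plasmacytoid dendritic cell markers summed to 30.0 to 42.2 TPM against 66.4 to 71.1 TPM. Siglech rose from 1.72 and 1.41 to 15.3 and 14.6 TPM (limma, adjusted p = 0.00552) and was 1 of 3 tested. Tcf4 and Bst2, the largest terms of each sum, did not pass (limma, adjusted p = 0.0674 and 0.480). Tcf4 was higher without overlap (20.1 and 17.8 against 33.1 and 30.4 TPM), as were 22.7% of all genes tested. Bst2 overlapped (20.3 and 10.7 against 21.2 and 20.2 TPM). Klk1 was at 0 in all 4 libraries, and Cox6a2 in both that kept Hif1a. The 8 conventional dendritic cell markers summed to 24.0 to 32.5 TPM against 29.8 to 35.3 TPM, which overlapped. Clec9a (0.339 and 0.331 against 2.74 and 2.43 TPM), Zbtb46 (0.472 and 0.291 against 1.86 and 2.01 TPM) and Itgax (0.747 and 0.610 against 2.29 and 2.49 TPM) rose, 3 of 5 tested, each through the same filter. Over all genes tested 5.25% rose. The other 2 tested overlapped, with log2 fold changes of -0.08 and -0.06: Cd209a (19.2 and 11.5 against 15.4 and 12.9 TPM) and Clec10a (11.5 and 10.7 against 12.1 and 9.24 TPM). Under quantile normalization Itgax and Zbtb46 did not pass (limma, adjusted p = 0.0584 and 0.0605), nor did Itgax without Hif1a-intact replicate 2 (0.0536). Batf3 was listed at 0 in Hif1a-intact replicate 1.

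Macrophage markers did not move one way. Of 7 tested, 5 had fold changes above 0 and 2 below, with a median of 0.55, and the 2 below passed: Adgre1 (34.5 and 26.7 against 10.1 and 9.72 TPM, limma adjusted p = 0.0211) and the lysosomal protein gene Cd68 (21.6 and 17.2 against 9.07 and 8.36 TPM, limma adjusted p = 0.0416). Cd68 lost its call under 4 of 12 alternatives with all libraries (limma, adjusted p up to 0.0764) and Adgre1 under 1 (0.0511). The complement genes C1qa (0.532 and 0.465 against 1.52 and 1.31 TPM), C1qb (1.48 and 1.92 against 3.69 and 4.56 TPM) and C1qc (1.13 and 2.45 against 3.79 and 4.02 TPM) and the receptor gene Mertk (0.562 and 0.606 against 1.27 and 1.39 TPM) were higher without overlap. They did not pass (limma, adjusted p from 0.0576 to 0.171), and the filter fixed the direction of C1qa and Mertk. Vcam1, the most abundant of the list, overlapped at 54.9 and 79.99 against 65.3 and 69.7 TPM. Cd5l was at 0 in both libraries with Hif1a intact. The list summed to 115 to 129 TPM against 95.2 to 99.6 TPM, a sum made up mostly of Vcam1, Adgre1 and Cd68. The 6 monocyte markers summed to 510 to 539 TPM against 470 to 488 TPM, none was at 0, and 3 of 5 tested had fold changes below 0. Ccr2 rose from 11.3 and 8.48 to 50.7 and 49.9 TPM (limma, adjusted p = 0.00988). F13a1 (375 and 354 against 264 and 279 TPM) and Cd14 (23.1 and 23.2 against 14.5 and 15.5 TPM) were lower without overlap and did not pass (limma, adjusted p = 0.159 and 0.0806). Ly6c2 was higher without overlap and did not pass either (96.6 and 105 against 117 and 119 TPM, limma adjusted p = 0.381). Csf1r overlapped (31.6 and 19.7 against 22.9 and 23.1 TPM). Cx3cr1, too low to be tested, was higher without overlap (0.731 and 0.543 against 0.860 and 1.30 TPM). Of the 5 tested, 2 were higher and 2 lower without overlap, against 22.7% and 32.3% of all genes tested. Siglech, Ccr2, Adgre1 and Cd68 all lost their calls without either Hif1a-null library. Cd79a, Ebf1, Clec9a, Zbtb46 and Itgax fell below the filter when either Hif1a-null library was left out. Their calls could not be checked that way. The part of any of these cells in the level of Cd74 was not tested.

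**Figure D5:**
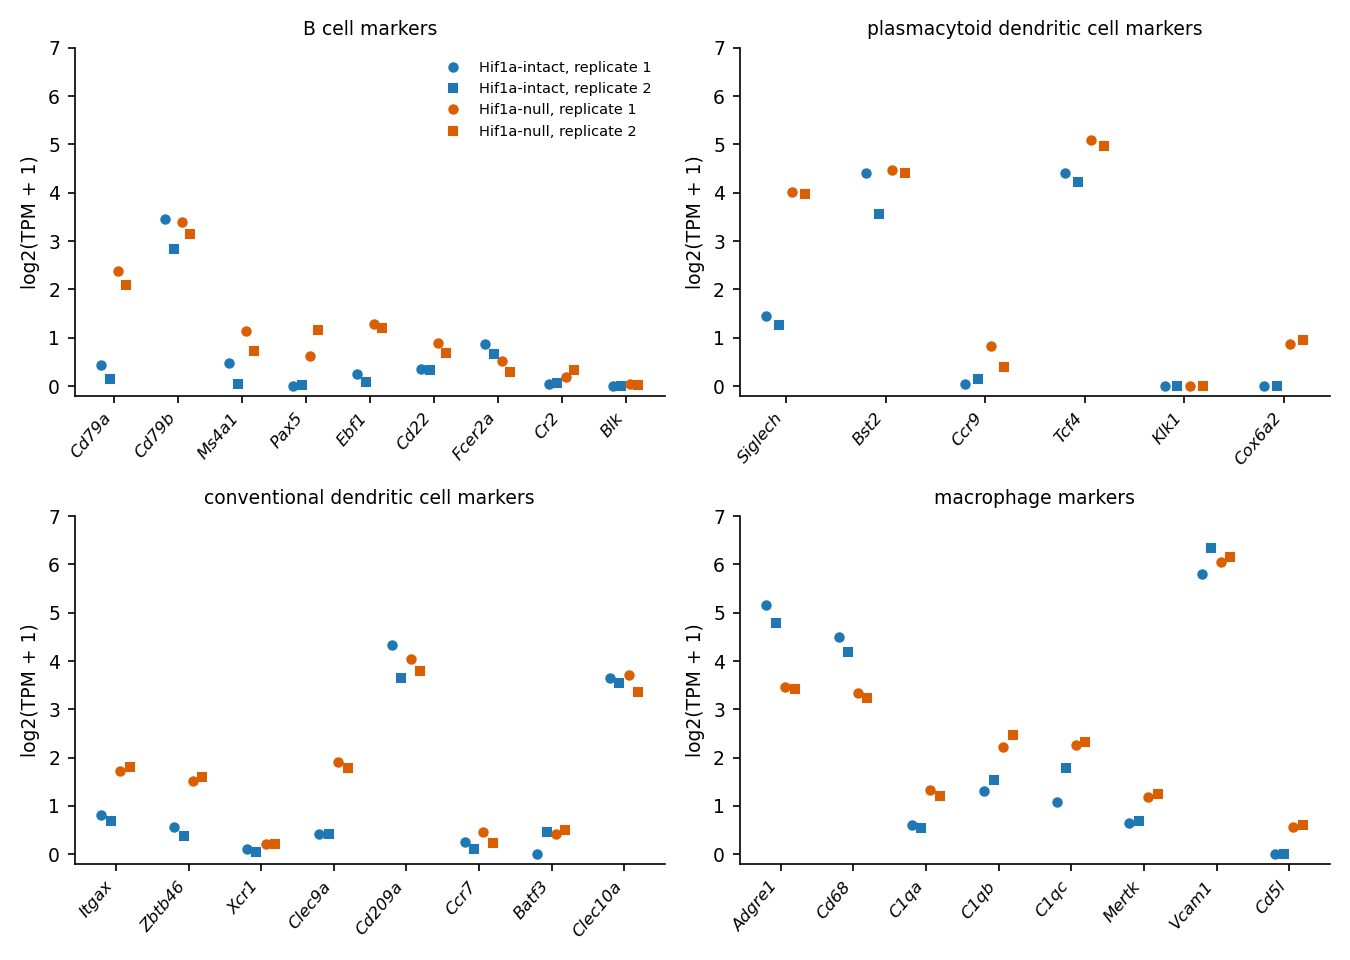
Level, as log2(TPM + 1), of markers of 4 cell types known for class II expression in each library, blue for Hif1a-intact and orange for Hif1a-null. Siglech, Cd79a, Clec9a and C1qb are higher in the Hif1a-null libraries, Adgre1 and Cd68 lower, and Blk and Klk1 lie at or near 0 throughout. The groups overlap for Cd79b, Bst2, Cd209a, Clec10a, Ccr7, Batf3 and Vcam1.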

How the data were processed

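RNA sequencing was done on 4 libraries of c-Kit-selected mouse bone marrow cells, 2 per genotype group, taken from the genotype labels. Per the submitters' processing notes, expression was quantified with kallisto and the build was mm10. The sources used here give no version, transcript set or strand setting. Deposited by the authors was 1 TPM value for each Ensembl gene in each library, a unit read from column sums between 955562 and 963135. Read depth cannot be recovered from TPM, and counting intervals are left out. kallisto splits reads among similar transcripts by estimate.

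Symbols and coordinates came from GENCODE vM21 (GRCm38, the assembly of mm10) by Ensembl identifier, and 27475 of 28987 genes had a symbol. limma 3.58.1 in R 4.3.3 (eBayes, trend and robust off, two-sided) was fitted to log2(TPM + 1) of the 11909 genes that reached 1 TPM in 2 or more libraries. Benjamini-Hochberg adjustment covered all of them, with a threshold of 0.05. The fit was tested on simulated data with the same spread for every gene, unlike these libraries, and no result rests on that test. Copies were searched with blastn 2.17.0 (95% identity or more, across 50% or more of the shorter transcript and a minimum of 100 bases). Promoters came from RefSeq (GRCm38.p6). Figures used matplotlib 3.10.9.

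The members and lists were chosen with earlier results of these data known. All members are named; of the other lists, genes past the threshold (up to 4 per list) and markers of antigen-presenting cells. Alternatives were other variance models, scalings, filters and pseudocounts, protein-coding genes only, and each library left out. Summing H2-DMb1 with H2-DMb2, the left-out libraries for the summed level, and every alternative for genes outside the members were added after seeing the data. Some genes of the lists are not reported here and were left out of list counts and sums.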

Additional observations from a re-analysis of the deposited data

How the results depend on the processing

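Replicate numbers only name the libraries. No paired analysis was possible because the labels give no replicate number that the groups share. The number of class II genes called higher was 1 under 11 of the 12 alternatives that kept all libraries and 2 among protein-coding genes only, and ran from 0 to 2 with 1 library left out: 0 without either Hif1a-null library and 2 without Hif1a-intact replicate 2. None was called lower under any of these 16 alternatives. Cd74 kept its call under the 12 that kept all libraries (limma, adjusted p from 0.0181 to 0.0387) and without either Hif1a-intact library. The median log2 fold change of the class II genes ran from 0.18 to 0.29 with all libraries and from 0.17 to 0.23 with 1 left out. The sign turned for Ciita under quantile normalization (-0.14) and without Hif1a-null replicate 1 (-0.026, up to 0.39 with another library left out), for H2-Ab1 without Hif1a-intact replicate 1 (-0.18, up to 0.54), and for H2-DMb2 without Hif1a-intact replicate 2 (-0.14) or Hif1a-null replicate 2 (-0.011, up to 0.28); none of these passed a threshold, and the cause was not tested. Read depth is unknown, so counting error could not be set beside any of these values.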
